A study of Mus musculus with 6 samples.

Results

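The 10 genes described here encode elastin, the fibrillins and the proteins that assemble and crosslink elastic fibres around them: Eln, Fbn1, Fbn2, Mfap2, Mfap4, Fbln5, Efemp2, Emilin1, Emilin2 and Lox. They were taken by gene name from a table of 15238 genes, and all 10 were present. They had been picked with the difference between the genotypes already known, so their values in that contrast are a description of these libraries and not independent support for a change. Bulk RNA was sequenced from intestinal fibroblasts of 9-day-old pups of the Balb/c strain. The sort kept podoplanin-positive cells without the surface markers of leukocytes (CD45), epithelium (EpCAM) and endothelium (CD31). Of the 6 libraries, 3 were wild-type (replicates 1, 3 and 4) and 3 were DdblGata1 (replicates 4, 9 and 10), a line that lacks eosinophils because a promoter element of the transcription factor gene Gata1 is deleted in the germline. The labels do not tie the libraries to separate animals, so p-values measure the spread between libraries only. Where 3 values of a genotype are listed, they follow the order of the replicate numbers given here.

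Elastic fibres form when tropoelastin, the product of Eln, is laid down on a scaffold of fibrillin microfibrils and crosslinked by lysyl oxidases. Fibulins carry tropoelastin and the crosslinking enzymes to the scaffold, and EMILINs sit at the interface of elastin and microfibrils. In the gut such fibres run through the mesenchyme around villi, vessels and muscle, and microfibrils also hold latent TGF-beta.

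Emilin2 was the member with the clearest difference between the genotypes: its level was higher in all 3 DdblGata1 libraries than in any wild-type library. RefSeq (GRCm38.p6) gives the gene more than 1 start on the reverse strand of chromosome 17, and the 250 bases upstream of 2 of them, 545 bases apart, are shown because transcripts from these 2 starts were counted separately below. The upstream window is chr17:71311557-71311806 and the downstream window is chr17:71311012-71311261. Capitals mark a match, read on the opposite strand, to GGGCGG, the GC box.

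Emilin2 upstream start: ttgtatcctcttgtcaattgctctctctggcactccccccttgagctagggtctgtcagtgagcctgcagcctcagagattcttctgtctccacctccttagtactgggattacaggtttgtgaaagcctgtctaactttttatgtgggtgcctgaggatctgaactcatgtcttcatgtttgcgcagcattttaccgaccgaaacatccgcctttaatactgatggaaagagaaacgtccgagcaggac
Emilin2 downstream start: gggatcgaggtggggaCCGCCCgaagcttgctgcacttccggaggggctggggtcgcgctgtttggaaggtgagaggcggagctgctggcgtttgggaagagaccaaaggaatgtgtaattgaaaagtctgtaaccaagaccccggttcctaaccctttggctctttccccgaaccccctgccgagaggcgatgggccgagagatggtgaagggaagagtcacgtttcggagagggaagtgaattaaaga

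The upstream window had a GC content of 48.4% and overlapped 116 and 62 bases of 2 exons of a noncoding Emilin2 transcript (Emilin2-208), and the downstream window had 57.6%. The GC box match lay 234 to 229 bases before the downstream start. Both strands of each window were searched for the TATA box as TATAAA, the GC box as GGGCGG, the CCAAT box as CCAAT, the AP-1 site as TGANTCA, the E-box as CANNTG and the CArG box by its name; none of these overlapped another. The upstream window held 1 CANNTG match, which is not capitalised, and no other match of these was present in either window. Among 32851 such windows, 32.7% held GGGCGG and 66.2% held CANNTG. The shares were 12.4% for the TATA box, 33.8% for the CCAAT box, 6.75% for the AP-1 site and 1.47% for the CArG box. A match is a description of the letters only. RefSeq windows were matched for 6 of the 10 genes: Efemp2, Emilin1, Emilin2, Fbln5, Fbn1 and Mfap2. Windows of members on chromosome 18, Fbn2 and Lox, were left out of the search, and no entry matched Eln and Mfap4.

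Gene table totals were 28110454 to 31210800 estimated counts per library. Gata1 had 0 estimated counts in 5 libraries and 1 in the remaining one, and 0 counts in the shallowest library allow at most 0.107 CPM (counts divided by the scaled total), so its level did not check the genotype labels. Fibroblast markers summed to 105462 to 149872 CPM in wild-type and 102549 to 143366 in DdblGata1 libraries. Epithelial markers summed to 122 to 199 CPM in 5 libraries and to 618 CPM in wild-type replicate 1. Of 5 eosinophil markers only Ccr3 was in the gene table, at 0.360 to 1.10 CPM in wild-type and 0.165 to 0.258 CPM in DdblGata1 libraries. These groups did not overlap, but the DdblGata1 values are little above the limit of 0.107 CPM. Over all genes, edgeR called none at an adjusted p under 0.05 (lowest 0.384) and 1564 at an unadjusted p under 0.05. DESeq2 called 214.

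**Figure D1:**
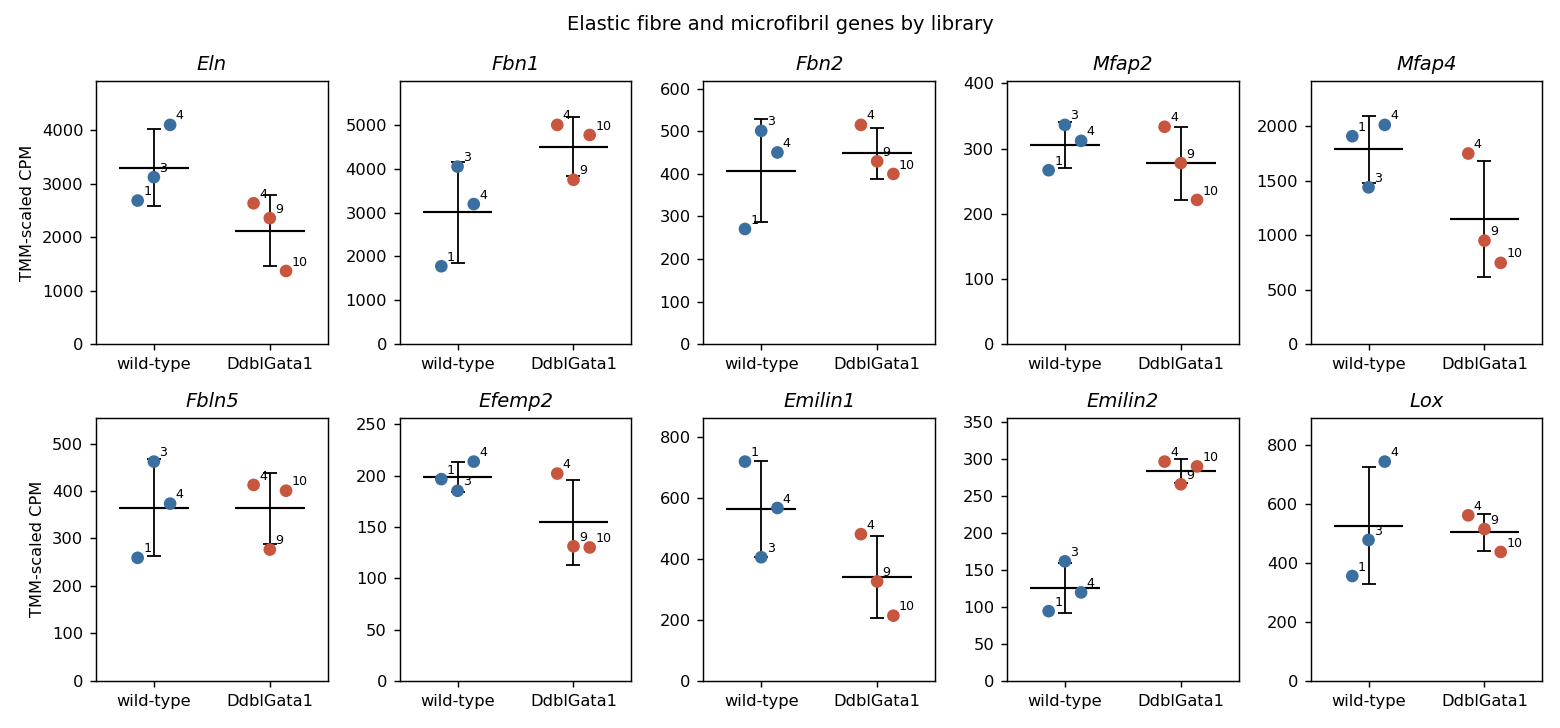
Level of each of the 10 genes in TMM-scaled CPM (vertical axes, each from 0) in the 3 wild-type and 3 DdblGata1 libraries. Points are libraries marked with their replicate number, horizontal lines are group means and bars are the SD; the Emilin2 points lie between 94.4 and 162 in wild-type and between 266 and 297 in DdblGata1, and Eln is the other gene whose groups do not overlap.

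The core of the fibre is elastin. Eln (ENSMUSG00000029675, GRCm38 chromosome 5, 134702593 to 134747323, reverse strand) had 2684, 3121 and 4098 CPM, scaled by TMM as throughout, in the wild-type libraries. The DdblGata1 libraries held 2634, 2356 and 1368 CPM. The groups did not overlap, but the highest DdblGata1 and the lowest wild-type library were close, and DdblGata1 replicate 10 was far below the rest. The fitted log2 ratio of DdblGata1 to wild-type libraries, called the log2 fold change here, was -0.64 ± 0.28 (SE, 3 libraries a group), with an unadjusted p of 0.0546 and an adjusted p of 0.486 by edgeR and 0.298 by DESeq2. Without wild-type replicate 4 the fold change was -0.45, and without DdblGata1 replicate 10 it was -0.42. The groups of Eln overlapped in TPM and in plain sums of transcript counts.

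Fibrillins form the microfibril scaffold. Fbn1 (ENSMUSG00000027204, chromosome 2, 125300594 to 125507993, reverse strand), the main fibrillin of postnatal tissue, had 1777, 4046 and 3193 CPM (wild-type) against 4997, 3746 and 4767 CPM (DdblGata1). Wild-type replicate 1 was lowest and wild-type replicate 3 lay above DdblGata1 replicate 9. The log2 fold change was 0.58 ± 0.30 (SE) with an adjusted p of 0.529 by edgeR, and it was 0.29 without wild-type replicate 1 and 0.86 without wild-type replicate 3. Fbn2 (chromosome 18), the fibrillin most used during development, had 271, 501 and 450 CPM (wild-type) against 515, 429 and 400 CPM (DdblGata1). Its groups overlapped, and the log2 fold change of 0.14 ± 0.24 (SE) was -0.11 without wild-type replicate 1.

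The microfibril-associated glycoproteins MFAP2 and MFAP4 bind fibrillin and tropoelastin. Mfap2 (chromosome 4) had 267, 336 and 312 CPM (wild-type) against 333, 278 and 221 CPM (DdblGata1), a log2 fold change of -0.14 ± 0.19 (SE). Mfap4 (chromosome 11) had 1906, 1438 and 2010 CPM (wild-type) against 1748, 949 and 745 CPM (DdblGata1). DdblGata1 replicate 4 stood among the wild-type libraries for Mfap4, while DdblGata1 replicates 9 and 10 stood below all of them. The log2 fold change of Mfap4 was -0.64 ± 0.32 (SE) with an adjusted p of 0.52 by edgeR. Leaving out DdblGata1 replicate 4 gave -1.07 and leaving out DdblGata1 replicate 10 gave -0.42. It was -0.37 with the 2 deposited surrogate variables, scores of unlabelled variation between libraries, as covariates.

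Fibulins bring tropoelastin and lysyl oxidases to the microfibrils. Fbln5 (chromosome 12), which encodes fibulin-5, had 259, 462 and 373 CPM (wild-type) against 413, 277 and 401 CPM (DdblGata1). The groups overlapped throughout, and the log2 fold change was -0.01 ± 0.25 (SE), of either sign depending on the scaling. Efemp2 (chromosome 19), which encodes fibulin-4, a carrier of lysyl oxidase, had 197, 185 and 214 CPM (wild-type) against 202, 131 and 130 CPM (DdblGata1). As for Mfap4, DdblGata1 replicate 4 lay within the wild-type range and the other DdblGata1 libraries lay below it. The log2 fold change was -0.36 ± 0.20 (SE), and it was -0.60 without DdblGata1 replicate 4 and -0.24 with the surrogate variables. Lox (chromosome 18), the crosslinking enzyme, had 355, 477 and 743 CPM (wild-type) against 561, 514 and 437 CPM (DdblGata1). All DdblGata1 values of Lox lay inside the wild-type range, and the log2 fold change was -0.06 ± 0.27 (SE).

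The EMILINs are large glycoproteins with an amino-terminal EMI domain, and the products of Emilin1 and Emilin2 are both found on elastic fibres. Emilin1 (ENSMUSG00000029163, chromosome 5, 30913402 to 30921277, forward strand), whose protein also restrains the maturation of TGF-beta, had 720, 406 and 567 CPM (wild-type) against 481, 326 and 214 CPM (DdblGata1). Wild-type replicate 3 was below DdblGata1 replicate 4, so the groups overlapped. They did not overlap in plain sums of transcript counts or in sums over transcripts of at least 1000 bases, where the unadjusted edgeR p was 0.0192 and 0.0184. The log2 fold change was -0.73 ± 0.32 (SE), with an unadjusted p of 0.0513 and an adjusted p of 0.486 by edgeR. Leaving out DdblGata1 replicate 10 gave -0.49, leaving out DdblGata1 replicate 4 gave -1.06, and it was -0.35 with the surrogate variables.

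Emilin2 (ENSMUSG00000024053, chromosome 17, 71252172 to 71311978, reverse strand) had 94.4, 162 and 120 CPM (wild-type) against 297, 266 and 290 CPM (DdblGata1). The DdblGata1 libraries were close together and all above the highest wild-type library, wild-type replicate 3. Group means were 125 ± 34.1 and 284 ± 16.2 CPM (SD, n = 3). The log2 fold change was 1.18 ± 0.21 (SE) with an unadjusted p of 4.16e-04 and an adjusted p of 0.384 by edgeR, and an adjusted p of 3.07e-04 by DESeq2. The DESeq2 call was kept without each library in turn, with adjusted p from 8.69e-08 to 0.0146. The direction was the same with each library left out, with edgeR fold changes of 0.99 to 1.41, the lowest without wild-type replicate 1.

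By DESeq2, Emilin2 was the only member of 10 called at an adjusted p under 0.05, and it was higher, against 1.46% of 14630 genes (0.971% higher and 0.492% lower). By edgeR none was called, as over all genes (0.0%), and Emilin2 alone passed an unadjusted p under 0.05, against 10.3% of all genes. Groups did not overlap for 2 members, Emilin2 upwards and Eln downwards, against 16.3% of all genes. Since the members were picked from this contrast, nothing is read from these shares. By value 3 members were higher and 7 lower in DdblGata1 libraries, and their median log2 fold change was -0.10, against -0.01 over all genes. Without DdblGata1 replicate 4, DESeq2 also called Mfap4 (adjusted p 1.79e-04), Efemp2 (0.00281) and Emilin1 (0.0114) lower, where 7.45% of all genes were called (3.9% higher and 3.55% lower) against 1.46% with every library. DdblGata1 replicate 4 had the highest CPM of the 3 DdblGata1 libraries for 10 of the 10 members. The share over all genes was not computed, so nothing is read from this count. DdblGata1 replicate 4 also had the lowest gene table total of the 6 libraries. The 10 members summed to 12180 CPM in it and to 9272 and 8973 CPM in DdblGata1 replicates 9 and 10, against 8529 to 12079 CPM in wild-type libraries.

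**Figure D2:**
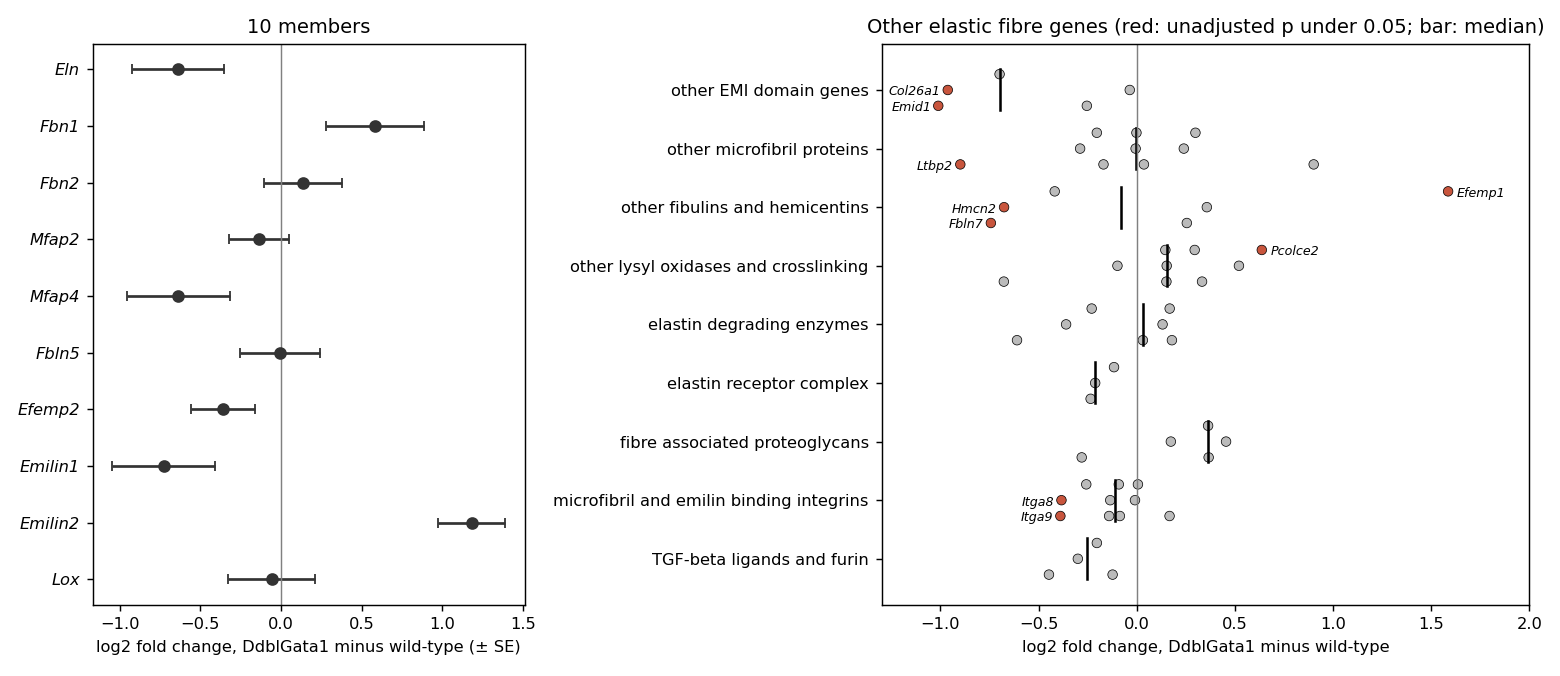
Fitted log2 fold changes, DdblGata1 minus wild-type, of the 10 members with their SE (left) and of 59 other elastic fibre genes in 9 lists (right; points are genes, short bars are list medians, red marks an unadjusted edgeR p under 0.05). Emilin2 lies at 1.18, Emilin1 at -0.73, Eln and Mfap4 at -0.64, and on the right Efemp1 stands alone at 1.59.

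The deposited gene counts are scaled for transcript length, and for Emilin2 this scaling bears on the size of the difference. Its 4 transcripts of at least 1000 bases had 28.6, 75.0 and 49.0 TPM (transcript abundance per transcript length, scaled to a fixed total) in wild-type replicates 1, 3 and 4 and 114, 95.3 and 106 TPM in DdblGata1 replicates 4, 9 and 10. Its 7 transcripts under 1000 bases had 48.5, 52.8 and 53.6 TPM (wild-type) against 149, 139 and 139 TPM (DdblGata1). Both classes were higher in every DdblGata1 library than in any wild-type library. The short class held 41.3% to 62.9% of the gene's TPM in each library but 1.54% to 3.02% of its estimated counts, 61.9 to 260 counts. With plain sums of transcript counts the log2 fold change was 0.95 ± 0.33 (SE) by edgeR, and the DESeq2 call was lost (adjusted p 0.0723). With transcripts of at least 1000 bases only, it was 0.94 ± 0.33 by edgeR, and the DESeq2 adjusted p was 0.0803. The Emilin2 groups did not overlap in either.

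Long Emilin2 transcripts begin at the 2 starts whose upstream sequences are printed above. The transcript from the upstream start, Emilin2-206, had 13.7, 31.5 and 20.6 TPM (wild-type) against 25.5, 50.4 and 41.0 TPM (DdblGata1). The groups overlapped, because DdblGata1 replicate 4 was below wild-type replicate 3. Transcripts Emilin2-201 to Emilin2-203, which begin 21 to 52 bases inside the downstream start, had 14.9, 43.5 and 28.4 TPM (wild-type) against 88.7, 45.0 and 64.5 TPM (DdblGata1). Here the groups did not overlap in TPM, and DdblGata1 replicate 9 was close to wild-type replicate 3. In unscaled estimated counts they did overlap, with 3380 in DdblGata1 replicate 9 and 3536 in wild-type replicate 3. A difference between the 2 starts is therefore not read from these values.

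**Figure D3:**
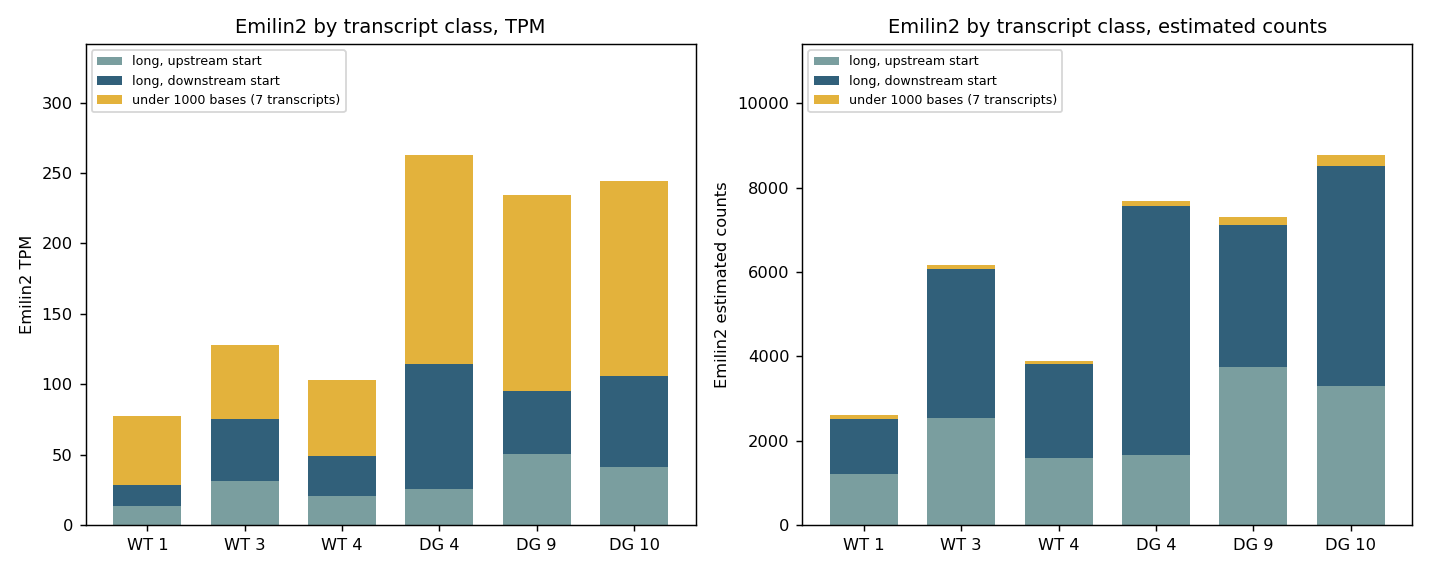
Emilin2 in each library (WT, wild-type; DG, DdblGata1; numbers are replicates) split by transcript class and stacked from 0, in TPM (left) and in estimated counts (right). Transcripts under 1000 bases make up 41.3% to 62.9% of the bar in TPM and 1.54% to 3.02% in estimated counts, and the DG bars are the taller ones in both panels.

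Use of the transcripts within each gene was compared with diffSpliceDGE, a measure that the choice of members did not use directly. Of the 10 genes 9 had transcripts to compare, and none was called (lowest Simes p 0.603), against 0.254% of 9448 genes. The 10 genes had 49 transcripts, 34 of them tested. Most members were carried by 1 transcript: Eln-201 held 88.6% of the TPM of Eln, Fbn1-201 98.1% of Fbn1, Fbln5-203 97.4% of Fbln5 and Lox-202 83.2% of Lox, as means over the 6 libraries. Fbn2 had 1 transcript with TPM above 0, Fbn2-201. Mfap4-203, annotated as a processed transcript, held 92.1% of the TPM of Mfap4, and the coding Mfap4-202 held 6.69%, also as means. Mfap4-202 had 27.7% in wild-type replicate 1 and at most 9.20% in any other library. For Emilin1 the coding Emilin1-201 held 56.5% and the retained intron Emilin1-203, of 601 bases, held 42.8%.

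Levels were ordered across genes in TPM, which is per transcript length. Mean TPM over the 6 libraries was 1424 for Mfap4, 997 for Eln, 607 for Fbn1, 552 for Mfap2 and 301 for Efemp2. It was 265 for Fbln5, 262 for Emilin1, 238 for Lox, 175 for Emilin2 and 63.1 for Fbn2. The ranges of neighbours in this order overlapped except between Mfap2 and Efemp2. Since all genes were measured in the same libraries, the order was also read within each library. Mfap4 was above Eln, Mfap2 above Efemp2 and Emilin2 above Fbn2 in 6 of 6 libraries. Eln was above Fbn1 and Lox above Emilin2 in 5. The remaining neighbours kept their order in only 3 or 4 libraries. The members differed in how far they varied: as a ratio of the highest to the lowest library Emilin2 varied most, by 3.41-fold (77.1 to 263 TPM), and Mfap2 least, by 1.58-fold (418 to 662 TPM).

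Ratios within a library do not depend on the scaling between libraries. The Emilin2 to Emilin1 ratio in TPM was 0.191, 0.581 and 0.307 (wild-type) against 0.898, 1.19 and 1.97 (DdblGata1). Emilin1 was the higher of the pair in every wild-type library. Over transcripts of at least 1000 bases the ratio was 0.173, 0.493 and 0.272 (wild-type) against 0.744, 0.846 and 1.23 (DdblGata1), so in DdblGata1 replicate 9 Emilin2 was the higher only with the short transcripts counted, and in DdblGata1 replicate 10 either way. The Fbn1 to Eln ratio in TPM was 0.290, 0.567 and 0.341 (wild-type) against 0.830, 0.696 and 1.52 (DdblGata1), and the Fbn1 to Fbn2 ratio was 7.18, 8.83 and 7.75 against 10.6, 9.54 and 13.0. The groups did not overlap in any of these 3 ratios. The Efemp1 to Efemp2 ratio was also taken, and its groups did not overlap (0.185 to 0.408 in wild-type, 0.475 to 2.07 in DdblGata1). Those of the Mfap5 to Mfap4 ratio did overlap (0.287 to 0.922 in wild-type, 0.635 to 1.76 in DdblGata1). All these ratios use values the members were picked on and are given without a test.

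**Figure D4:**
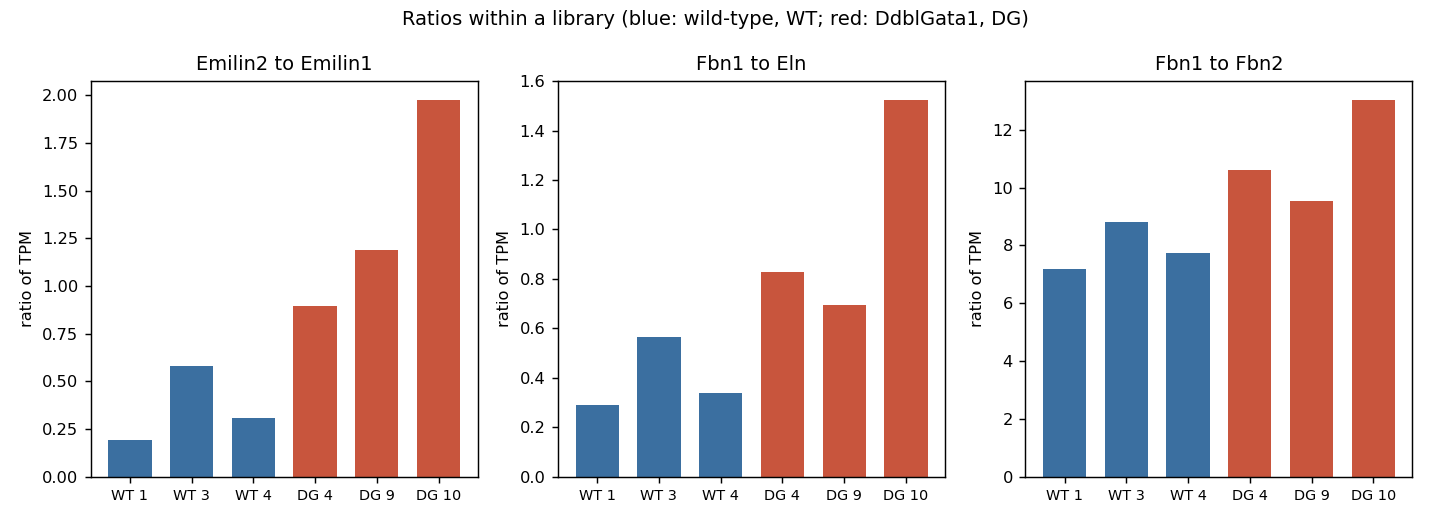
Ratios of TPM between pairs of genes in each library (vertical axes from 0; blue, wild-type; red, DdblGata1). Each bar is 1 library; the Emilin2 to Emilin1 ratio runs from 0.191 to 0.581 in wild-type and from 0.898 to 1.97 in DdblGata1 libraries.

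Across the 6 libraries the members' patterns are described without a test, since the points share library, depth and genotype. Of the 45 pairs, 32 had a positive and 13 a negative Pearson correlation of log2 CPM, and 8 were above 0.8. Mfap4 varied most closely with Efemp2 (r = 0.974) and Emilin1 (r = 0.952), and Fbn1 with Emilin2 (r = 0.867). Emilin1 and Emilin2 ran in opposite directions (r = -0.775), as did Fbn1 and Emilin1 (r = -0.710). Over 12834 genes, those whose pattern was most like Emilin2 were Gorab (r = 0.994), Lrp4 (0.991), Neto1 (0.990), Ugdh (0.989) and Trim2 (0.987). Those most like Eln were Pard6g (0.995), Rraga (0.988), Nup93 (0.988), Mmp10 (0.987) and Tmem132e (0.985). With log2(TPM + 1), 1 of each 5 stayed among the nearest 5.

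The other genes of the elastic fibre were taken as 9 lists of 61 genes, of which 59 were measured. edgeR called none at an adjusted p under 0.05, and at an unadjusted p under 0.05 there were 2 higher (against 6.03% of all genes) and 7 lower (4.23%). DESeq2 called 1 higher and 1 lower of 58, against 0.971% and 0.492% of all genes, and the median log2 fold change was -0.09. Groups did not overlap for 5 higher and 6 lower genes, against 8.98% and 7.34% of all genes.

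A short list of other EMI domain genes held Emilin3, Emid1, Col26a1, Mmrn1 and Mmrn2. All 5 listed genes had negative log2 fold changes (median -0.70), but 2 of them carry no clear direction. Genes with this domain outside the list were not examined, so nothing is read about the family as a whole. Col26a1, a collagen with an EMI domain, had 37.7, 54.3 and 37.8 CPM (wild-type) against 24.0, 24.8 and 17.9 CPM (DdblGata1). Its groups did not overlap, and DESeq2 called it lower (edgeR log2 fold change -0.96 ± 0.21 SE, DESeq2 adjusted p 0.0121), but not without wild-type replicate 3 (0.0936) or DdblGata1 replicate 10 (0.151). Emid1 had a log2 fold change of -1.01 ± 0.43 and Emilin3 of -0.70 ± 0.34. The DESeq2 adjusted p of Emid1 was 0.281. It was 7.11e-05 without DdblGata1 replicate 4 and reached 0.866 without another library. The multimerins Mmrn1 and Mmrn2, known from endothelium, were at under 5 CPM in every library. Their log2 fold changes were -0.25 ± 1.41 and -0.04 ± 0.79 (SE), and that of Mmrn1 was 3.34 without wild-type replicate 1 and 2.87 with the surrogate variables.

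Among the other fibulins, Efemp1, which encodes fibulin-3, had 42.9, 89.0 and 66.2 CPM (wild-type) against 113, 164 and 317 CPM (DdblGata1). All DdblGata1 libraries were above the wild-type ones, and DdblGata1 replicate 10 was well above the rest. The edgeR log2 fold change was 1.59 ± 0.40 (SE) and the DESeq2 adjusted p was 0.0106, but the call was lost when 1 library was left out: wild-type replicate 1 (0.0684), wild-type replicate 4 (0.0501) or DdblGata1 replicate 10 (0.219). Fbln7 had 43.9, 42.5 and 45.5 CPM (wild-type) against 34.4, 24.2 and 20.2 CPM (DdblGata1), with a log2 fold change of -0.74 ± 0.21. The hemicentin Hmcn2 had a log2 fold change of -0.68 ± 0.26 and Fbln1 of -0.42 ± 0.21. With every library DESeq2 called neither Fbln7 (adjusted p 0.0798), Hmcn2 nor Fbln1. Without DdblGata1 replicate 4, where 3.55% of all genes were called lower, it called Fbln7 (adjusted p 1.53e-05) and Fbln1 (8.39e-04, log2 fold change -0.66) lower. Without another library the DESeq2 adjusted p reached 0.425 for Fbln7 and 0.963 for Fbln1.

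Of the 10 other microfibril proteins, 1 passed an unadjusted p under 0.05: Ltbp2, a latent TGF-beta binding protein of the fibrillin family, with a log2 fold change of -0.90 ± 0.26 (SE). Its DESeq2 adjusted p was 0.0633, and it was 4.52e-04 on plain sums of transcript counts and 0.0241 to 0.466 without 1 library. Ltbp1, Ltbp3 and Ltbp4 had -0.20, -0.29 and -0.17. Among 9 other crosslinking genes, Pcolce2, an enhancer of procollagen processing, had 0.64 ± 0.24. The lysyl oxidases Loxl1, Loxl2 and Loxl3 had -0.10, 0.15 and 0.30, and Loxl4 had -0.68 ± 0.36 with overlapping groups. Of the 10 integrin genes, Itga8 and Itga9, subunits of receptors for matrix ligands, had -0.38 and -0.39, both at an unadjusted p under 0.05. The TGF-beta ligands Tgfb1 and Tgfb3 had -0.45 ± 0.20 and -0.30 ± 0.15, without a call. Elastin degrading enzymes, the elastin receptor complex and the proteoglycans had no gene at an unadjusted p under 0.05.

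Markers of other cell types also differed by value between the genotypes. In bulk RNA, fewer cells of a type and less RNA per cell cannot be told apart. Smooth muscle markers, which are also high in myofibroblasts, were lower by value in 8 of 8, with a median log2 fold change of -0.68 and a summed level of 8570 to 13722 CPM in wild-type and 5903 to 9188 CPM in DdblGata1 libraries, which overlap. Pericyte markers were lower in 4 of 6, at 1956 to 2458 against 1549 to 1631 CPM. Genes of the early response to tissue dissociation were higher in 10 of 10, at 5418 to 5662 against 7463 to 8926 CPM. Mesothelial markers were higher in 6 of 6, with a median log2 fold change of 0.31, and summed to 205 to 377 against 254 to 479 CPM, which overlap. Among them Wt1 did not overlap and was called higher by DESeq2 (log2 fold change 0.93, adjusted p 0.0163). DESeq2 also called 2 early response genes and 1 blood endothelial gene higher and 1 smooth muscle gene lower, against 0.971% and 0.492% of all genes. Groups did not overlap for 8 of 10 early response genes (higher) and 4 of 6 pericyte genes (lower), against 8.98% and 7.34% of all genes. Blood endothelial markers were higher in 3 of 6, with a median log2 fold change of -0.02. They summed to 59.4 to 83.2 against 114 to 169 CPM, and without Tek, an angiopoietin receptor, to 26.62 to 31.91 against 18.05 to 31.97 CPM. Leukocyte markers summed to 19.4 to 44.2 against 22.6 to 29.4 CPM. The part of these in the differences of Eln, Emilin1, Emilin2, Mfap4 and Efemp1 was not tested.

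Wild-type replicate 1, which had the most epithelial signal, also stood apart in its transcripts. Retained intron and nonsense-mediated decay transcripts held 35.1% of the TPM of Eln in it, against 2.59% to 13.8% in the other 5 libraries. For Emilin1 they held 59.7% in wild-type replicate 1 and 31.7% to 48.1% in the others. Wild-type replicate 1 was highest in this share of TPM for 4 of the 6 members with such transcripts, namely Eln, Efemp2, Emilin1 and Emilin2. Of the estimated counts these transcripts held far less in 3 of the 4. They held 4.44% to 8.50% for Emilin1, at most 2.12% for Efemp2 and at most 1.87% for Emilin2. For Eln they held 1.87% to 28.7% of the counts. For Fbn1 it was the lowest, at 0.541% against 1.33% to 2.38% in the others. For Fbln5 it had 0.404%, inside the 0.325% to 1.25% of the others. Without wild-type replicate 1 the log2 fold change was -0.79 for Eln, -0.53 for Emilin1, 0.29 for Fbn1 and 0.99 for Emilin2.

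**Figure D5:**
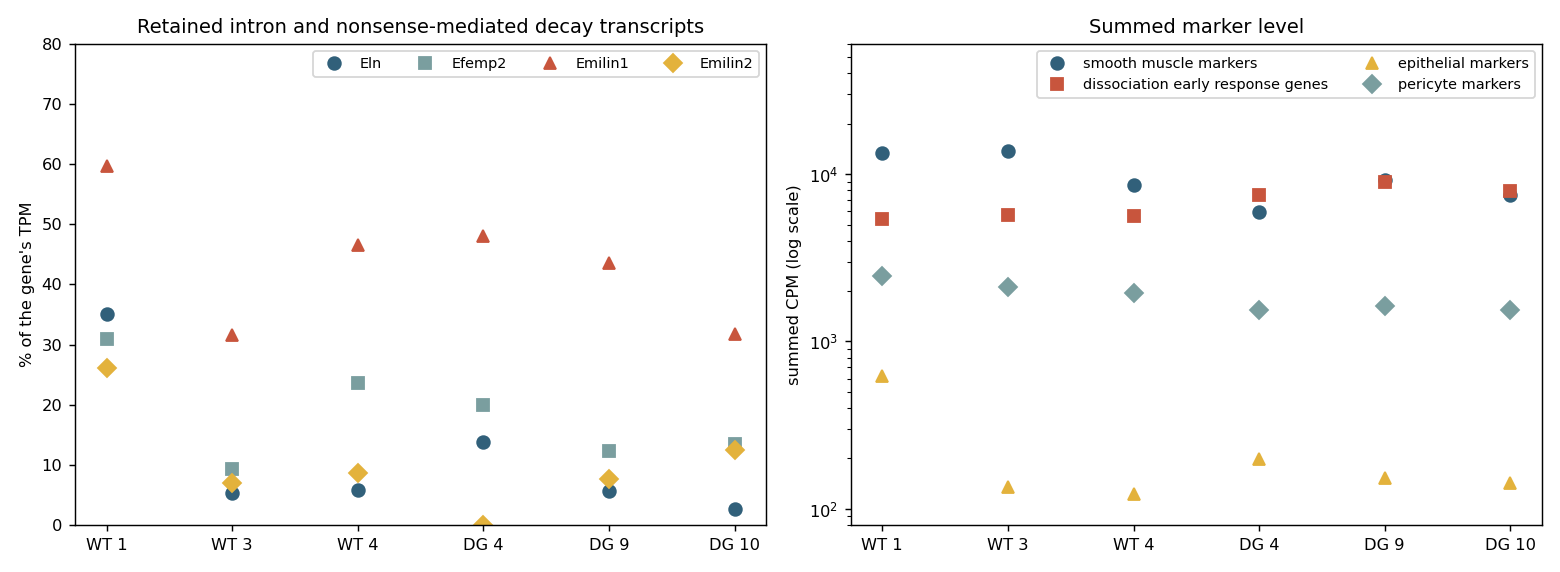
Share of each gene's TPM in retained intron and nonsense-mediated decay transcripts (left, percent) and summed level of 4 marker lists (right, CPM on a log axis) in each library. The 4 genes shown are those, of 6 members with such transcripts, in which WT 1 has the highest share, 59.7% for Emilin1. Of the estimated counts of Emilin1 they are 4.44% to 8.50%. WT 1 also has the highest epithelial sum, 618 CPM. The early response sum is higher in every DG than in any WT library.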

How the data were processed

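Per the labels, stranded TruSeq libraries were prepared with 100 ng RNA each. According to the submitters' processing notes, the tools were bcl2fastq 2.2, kallisto, R 4.2.2 and DESeq2, and the builds mm10 and GRCm38.p6. The step served by each tool: not given in the sources used here. For 15238 genes the authors deposited estimated (expected) counts as whole numbers, each gene with at least 10 counts in at least 3 libraries. The authors' transcript files hold estimated counts, TPM and lengths of 115270 transcripts, of which 113580 were placed with GENCODE M21. Gene values matched TPM sums scaled by mean transcript length in 99.6% of cases, within 1% plus 1 count, and plain sums in 26.2%. Per the deposited sample sheet, size factors are a ratio around 1 and 2 surrogate variables are a score per library.

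Genes were compared over the whole table by the quasi-likelihood test of edgeR 4.0.16 (R 4.3.3), robust, after TMM scaling (factors 0.960 to 1.057), with p adjusted after Benjamini and Hochberg and a threshold of 0.05. filterByExpr removed 0 genes. Per-library values are CPM or summed TPM. Likeness is the Pearson correlation of log2 CPM with a prior count of 2 among genes with a mean of at least 1. Transcript usage was compared with diffSpliceDGE and the Simes method. For counting error only, 0 counts allow up to 3. Promoter windows are from RefSeq.

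The members and lists were chosen with earlier results of these data known. Named genes are the 10 members, up to 4 genes of each other list by smallest unadjusted p, the 5 most like Emilin2 and Eln, and the 2 leading transcripts of each member; Ltbp1, Ltbp3, Ltbp4, Loxl1, Loxl2 and Loxl3 were added for their family, after their values were seen. Alternatives were DESeq2 1.42.0, limma-voom and limma-trend on log2(TPM + 1) or log2(TPM + 0.1) with limma 3.58.1, other scalings and filters, plain transcript sums, the 2 surrogate variables as covariates and leaving out each library. DESeq2 without each library, on plain sums and with the surrogate variables, and sums over transcripts of at least 1000 bases, were added after the data were seen.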

Additional observations from a re-analysis of the deposited data

How the results depend on the processing

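Over 26 alternatives the 10 members' log2 fold changes gave 260 values: 228 kept direction and side of the threshold, 11 passed a threshold the edgeR value did not, and 21 changed sign. The sign of Fbln5 changed with limma-voom (0.0096), library totals (0.0068), limma-trend on log2(TPM + 1) and log2(TPM + 0.1) (0.0929 and 0.0933), plain sums (0.0064, DESeq2 0.0047) and transcripts of at least 1000 bases (0.0013). Its values without 1 library were -0.22 to 0.20 by edgeR, and by DESeq2 0.20, 0.0105 and 0.15 without wild-type replicates 3 and 4 and DdblGata1 replicate 9. Lox changed sign on the log2 TPM scales (0.0817 and 0.0823). It had -0.30 to 0.28 without 1 library, and by DESeq2 0.28 and 0.0244 without wild-type replicate 4 and DdblGata1 replicate 10. Fbn2 had -0.11 to 0.31 without 1 library, and by DESeq2 -0.0991 without wild-type replicate 1.

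Of 1170 values of the other named genes, 27 changed sign and 50, all by DESeq2, passed a threshold the edgeR value did not. The 50 were of 13 genes: Neto1 (10 alternatives), Col26a1 (8), Efemp1 (7), Ugdh (6), Fbln7 and Ltbp2 (4 each), Lrp4 (3), Itga9 and Mmp10 (2 each), and Adamtsl2, Emid1, Fbln1 and Ltbp3 (1 each). By edgeR and DESeq2 in this order, Adamtsl2 had -0.16 and -0.17 on plain sums and -0.24 and -0.25 with long transcripts. With surrogate variables Ctss had 0.44 and 0.43, Mmrn1 2.87 and 2.59, and Neu1 0.0407 and 0.0300. Mmrn1 had 0.70 with limma-voom and 0.0771 and 0.53 on log2(TPM + 1) and log2(TPM + 0.1), where Tgfb2 had 0.0403 and 0.0432. Without 1 library the edgeR ranges were -1.01 to 0.83 for Ctss, -0.44 to 0.14 for Furin, -1.10 to 3.34 for Mmrn1, -0.45 to 0.0335 for Neu1 and -0.43 to 0.19 for Tgfb2. By DESeq2 without wild-type replicate 1, Ctss had 0.84, Mmrn1 3.39 and Neu1 0.0416. By DESeq2 without wild-type replicate 3, Furin had 0.14 and Tgfb2 0.18, and without DdblGata1 replicate 10 Mmrn1 had 0.31. The cause was not tested.

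Genes called over the whole table numbered 0 by edgeR (0 to 1 without 1 library, the 1 without DdblGata1 replicate 4) and 214 by DESeq2. DESeq2 called 106, 239 and 165 when wild-type replicate 1, 3 or 4 was left out, and 1025, 84 and 43 when DdblGata1 replicate 4, 9 or 10 was. It called 310 on plain sums, 449 with surrogate variables and 314 with transcripts of at least 1000 bases. Members at an unadjusted p under 0.05 were 1 higher and 0 lower by edgeR. The higher count was 2 with limma-trend at either pseudocount, with surrogate variables by either tool, with DESeq2 on plain sums or long transcripts, and 1 to 2 without 1 library. The lower count was 3 with DESeq2, with surrogate variables by either tool and with DESeq2 on plain sums or long transcripts, 2 with limma-voom and library totals, 1 with RLE scaling, plain sums and long transcripts by edgeR, and 0 to 4 without 1 library. Members with separate groups were 2 higher with library totals and TPM (Fbn1 and Emilin2), and 0 lower in TPM. Genes with changed transcript usage were 24, 47 by the F test, 0 with a 10% share filter and 2 to 70 without 1 library; no member was called in any of these.

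No paired analysis was possible because the labels do not tie any wild-type library to a DdblGata1 library. Replicate number 4 occurs in both groups, but the labels do not say that it marks a pair. The differences seen for Eln, Emilin1 and Mfap4 did not pass the threshold by edgeR, and the short Emilin2 transcripts rest on 61.9 to 260 estimated counts.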
